A study of Oryza sativa Japonica Group with 6 samples.

Results

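Germin-like proteins are small secreted glycoproteins of the plant cell wall that share the barrel fold of the cupin family. The founding germin of cereals is an oxalate oxidase, which releases hydrogen peroxide from oxalate, and several germin-like proteins have superoxide dismutase activity, which makes hydrogen peroxide from superoxide. In rice, tandem copies of these genes on chromosome 8 lie in a region linked to resistance against fungal disease.

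The 9 loci described here are germin-like genes of chromosome 8, out of 28855 loci on the array. The 8 loci Os08g0189100, Os08g0189200, Os08g0189300, Os08g0189400, Os08g0189500, Os08g0189600, Os08g0189700 and Os08g0189900 belong to a tandem cluster, and Os08g0460000 lies apart from it. They were chosen by family, by place and by a low or absent signal in wild type, with the contrast between the groups already known. Their levels in wild type and their differences between groups are therefore given as descriptions, with no test. The locus identifiers name the chromosome, the array design names the genome build IRGSP5, and positions within it were not analysed here.

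RNA came from blades of the fourth leaf of untreated Nipponbare rice seedlings at the four-leaf stage, grown at 25 °C, and was hybridised to 6 one-colour oligonucleotide arrays. The 3 wild-type samples carried no transgene, and the 3 samples of Line13 came from a single transgenic line that accumulates linalool and was made to overexpress a linalool synthase. The sources used here do not name the transgene's promoter. Each sample pooled at least 3 plants, so the spread between arrays is a spread between pools.

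Values are the log2 of the background-subtracted signal relative to the 75th percentile of the array, so that 0 is the level of a rather bright probe. A probe counted as detected on an array where the scanner software marked it as well above background. The lowest detected probe lay at -6.60, -6.89 and -6.94 on wild-type replicates 1 to 3, and at -6.26, -8.13 and -7.69 on Line13 replicates 1 to 3. Detection thus reached less deep on Line13 replicate 1 than on Line13 replicates 2 and 3. The 12 probes of random sequence, a measure of unspecific signal, reached at most -5.37, -5.47 and -5.76 in wild type and -6.66, -7.66 and -7.43 in Line13. Of these 12 probes, 2, 1 and 1 were marked as detected on wild-type replicates 1 to 3, and 0, 1 and 0 on Line13 replicates 1 to 3. Detection, or a bound set by it, therefore does not by itself clear unspecific signal. Signals of different probes depend on the probe as well as on the transcript, so levels are compared between arrays within a probe. Near-identical tandem copies may share signal, and how far each probe is specific to its copy was not analysed here.

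At the linalool synthase locus examined here, the direction differed from what the description of Line13 would imply if its probe matched the transgene. The linalool synthase locus Os02g0121700 was at -3.32, -0.92 and -1.50 on the wild-type arrays, and the Line13 arrays read -6.52, -5.84 and -3.65, the first of them below detection. It was lower on the arrays labelled Line13 (10.8-fold, limma adjusted p = 0.0185). The sources used here do not say whether its probe matches the transgene, so the label is neither borne out nor contradicted. Directions below are therefore directions between labels. Each group lay on a slide and scan day of its own, so slide, scan and group cannot be told apart. Correlations of signal across probes, which are not independent replicates, were 0.977 to 0.992 between wild-type arrays and 0.906 to 0.981 between Line13 arrays, where replicate 1 stood apart. Between the groups they were 0.618 to 0.747. Leaf markers, listed from general knowledge (Rubisco small subunits and light-harvesting proteins), were detected on all 6 arrays, 6 of 6 loci, and limma called none of them. Their summed signal, in multiples of the 75th percentile, was 1019 to 1264 on the wild-type arrays and 473 to 1015 on the Line13 arrays. Of the 6 leaf loci, 3 were lower on the Line13 arrays without overlap, against 35.8% of all genes tested. Probes of a locus could differ, and those of Os09g0346500 ran from 2.93 lower to 0.19 higher on the log2 scale.

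Os08g0460000 was bright on all arrays labelled Line13 and close to absent from wild type. The probe with the highest mean was at -8.27, -5.04 and -8.47 on wild-type replicates 1 to 3 and at 5.26, 4.68 and 4.87 on Line13 replicates 1 to 3. Before scaling, its processed signals were 2.33, 26.9 and 2.71 in wild type and 12457, 39969 and 27287 in Line13. The groups did not overlap, and within wild type this probe was detected on replicate 2 alone. The difference of the means was 12.20 on the log2 scale, which is no measured size, since 2 of the 3 wild-type values were below detection.

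The locus had 5 probes, and the other four were detected on no wild-type array, replicate 2 included. Against the detection level of those arrays, they were at least 3775-fold to at least 4477-fold higher on the arrays labelled Line13. A bound of this kind starts from the mean of all arrays of the brighter group. It sets that mean against the lowest detected signal of each dim array, or the probe's own signal where higher. In wild type that lowest signal lay under the highest random-sequence probe of each array. On each of the 5 probes Line13 replicate 1 was the highest of the Line13 arrays and replicate 2 the lowest, with 0.58 to 0.70 on the log2 scale between them. Over the 20499 loci detected on all Line13 arrays the median of this range was 0.77.

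**Figure D1:**
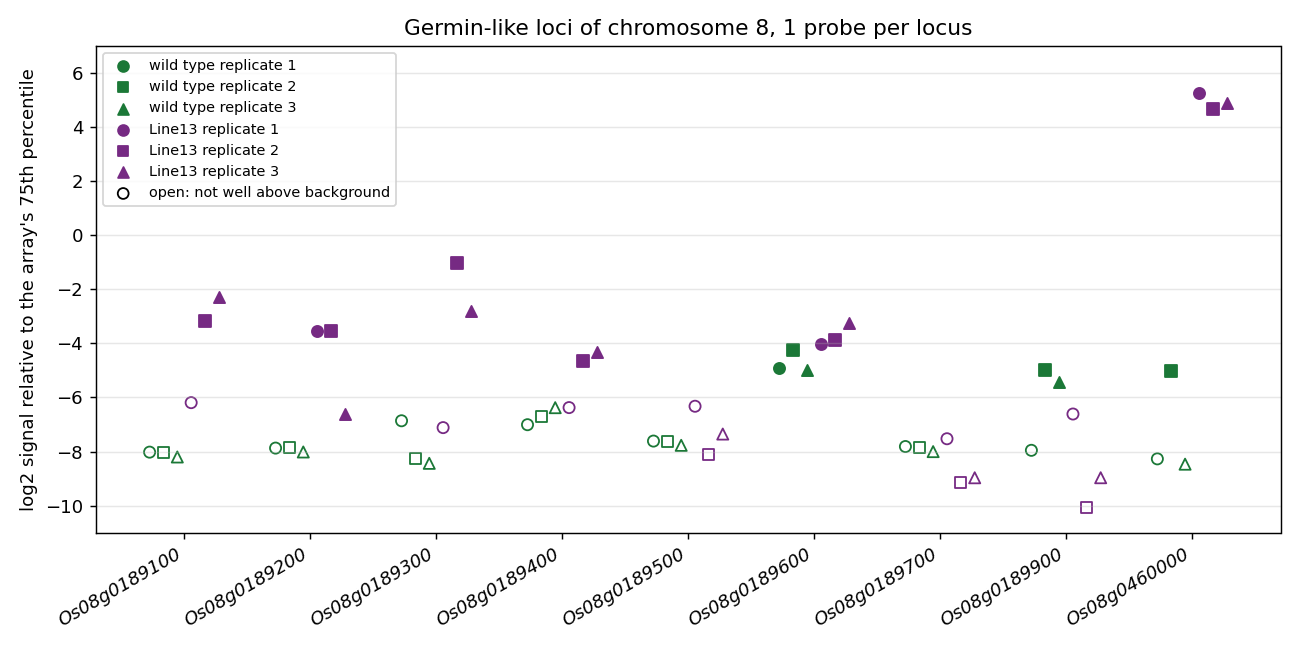
Log2 signal relative to the array's 75th percentile (vertical axis) of the 9 germin-like loci, with the probe of highest mean for each locus. Green marks are wild-type arrays, purple marks are Line13 arrays, the shape gives the replicate, and open marks are not well above background. Os08g0460000 lies between 4.68 and 5.26 on the Line13 arrays, while the cluster loci lie below 0 on every array and differ among the Line13 arrays.

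The cluster loci were all dim, and they were not detected on the same arrays. With the probe of highest mean for each locus, 1 of 9 members was detected on wild-type replicate 1, 3 on replicate 2 and 2 on replicate 3, against 3, 6 and 6 on Line13 replicates 1 to 3. Over all spots 71.4%, 72.1% and 72.3% were detected on the wild-type arrays, against 72.3%, 85.5% and 81.2% on Line13 replicates 1 to 3, so detection was higher on Line13 replicates 2 and 3 across the array. Just 1 member was detected on all 6 arrays, 3 were detected on Line13 replicates 2 and 3 and nowhere else, and 2 were detected on no array. Over all loci of the array, 25.8% were detected on no wild-type array. The filter of the fit, which asks for detection on all 3 arrays of a group, was passed by 3 members, Os08g0460000, Os08g0189200 and Os08g0189600. All 3 were higher on every Line13 array than on any wild-type array, where 32.7% of the 22232 genes tested were so, 35.8% were lower without overlap and 68.5% did not overlap in either direction. Nothing is read from that count, since the choice of members used this contrast, and a member passing through 1 group alone had to differ.

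Os08g0189600 was the cluster member with a steady signal in wild-type leaf. It was at -4.90, -4.25 and -4.99 on the wild-type arrays and at -4.03, -3.87 and -3.24 on the Line13 arrays. All 6 values were above the random-sequence probes of their arrays, and the lowest Line13 value was above the highest wild-type value by a narrow margin. Its mean was 2.0-fold higher on the arrays labelled Line13 (1.0 on the log2 scale, SE 0.31, n = 3 and 3), and a second probe gave 1.05. The difference was 0.38 with quantile normalization and 0.43 with another background correction, so its size depends on the processing.

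Os08g0189100, Os08g0189300 and Os08g0189400 were detected on Line13 replicates 2 and 3 and on no other array. Os08g0189100 was at -3.16 and -2.27 there, and not above background on Line13 replicate 1, with -6.19. Its wild-type values, none of them detected, were -8.02, -8.04 and -8.20. Compared with the detection level of Line13 replicate 1, or its own signal there, the pools of replicates 2 and 3 were at least 8.21-fold and at least 15.2-fold higher. Both other probes of the locus gave the same order of arrays, with bounds of at least 6.24-fold and 8.69-fold for replicate 2.

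Os08g0189300 differed most between the Line13 pools among these 3 loci. It was at -1.02 on Line13 replicate 2 and at -2.80 on replicate 3, and not detected on replicate 1, with -7.12. The wild-type values of -6.86, -8.27 and -8.44 were all below detection. Replicate 2 was at least 37.9-fold above the detection level of replicate 1, and replicate 3 at least 11-fold. A second probe read -1.04 and -2.76 on the same arrays and -7.60 on replicate 1. Between replicates 2 and 3, Os08g0189300 was higher on replicate 2 while Os08g0189100 was higher on replicate 3, so the cluster genes did not keep 1 order across pools.

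Os08g0189400 had a single probe. It was at -4.65 and -4.32 on Line13 replicates 2 and 3 and not detected on replicate 1, at -6.38. In wild type it was at -7.01, -6.70 and -6.38, never detected. The bounds over replicate 1 were small, at least 3.05-fold and at least 3.84-fold. Detection on Line13 replicates 2 and 3 alone was shared by 920 loci, 3.19% of those on the array.

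Os08g0189200 had another order of pools. Its brighter probe was at -3.55 and -3.56 on Line13 replicates 1 and 2 and at -6.60 on replicate 3, where it was just detected, and at -7.87, -7.86 and -8.02 on the wild-type arrays, where it was not. The first of these Line13 pools was thus 8.31-fold above the third. A second probe was at -4.21 and -3.74 on replicates 1 and 2 and was not detected on replicate 3, with -6.58. Low signal on Line13 replicate 1 was therefore no property of the whole cluster, since Os08g0189200 was among its higher values there.

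Os08g0189900 went the other way and was detected in wild type alone. It was at -7.96, -5.00 and -5.42 on wild-type replicates 1 to 3, with replicate 1 below detection. The Line13 arrays read -6.61, -10.07 and -8.97, none detected. Its wild-type mean, the undetected replicate 1 included, was 2.36-fold above the detection level of the Line13 arrays. The highest random-sequence probes of the 2 arrays that detected it were at -5.47 and -5.76, not far below its values. The same pattern of detection was seen at 35 loci, 0.121% of the array. Os08g0189500 and Os08g0189700 were not detected on any array. Os08g0189500 ran from -7.77 to -7.61 in wild type and from -8.12 to -6.33 in Line13, and Os08g0189700 from -8.00 to -7.82 and from -9.14 to -7.53. No fold is given for them, since values below detection have no order.

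Averaged over all 3 Line13 pools, the dim members were higher than the detection level of wild type by modest folds. These were 7.66-fold for Os08g0189100, 8.95-fold for Os08g0189300 and 2.72-fold for Os08g0189400, and at least 4.72-fold for Os08g0189200. The first 3 use means that include the undetected value of Line13 replicate 1, so they are no strict bounds. The folds rest mainly on 2 pools each, replicates 1 and 2 for Os08g0189200 and replicates 2 and 3 for the others. When 1 array was left out, the difference of means on the log2 scale, taken against undetected wild-type values, ran from 3.41 to 5.38 for Os08g0189100, from 2.90 to 5.95 for Os08g0189300, from 2.84 to 4.36 for Os08g0189200 and from 1.18 to 2.21 for Os08g0189400.

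**Figure D2:**
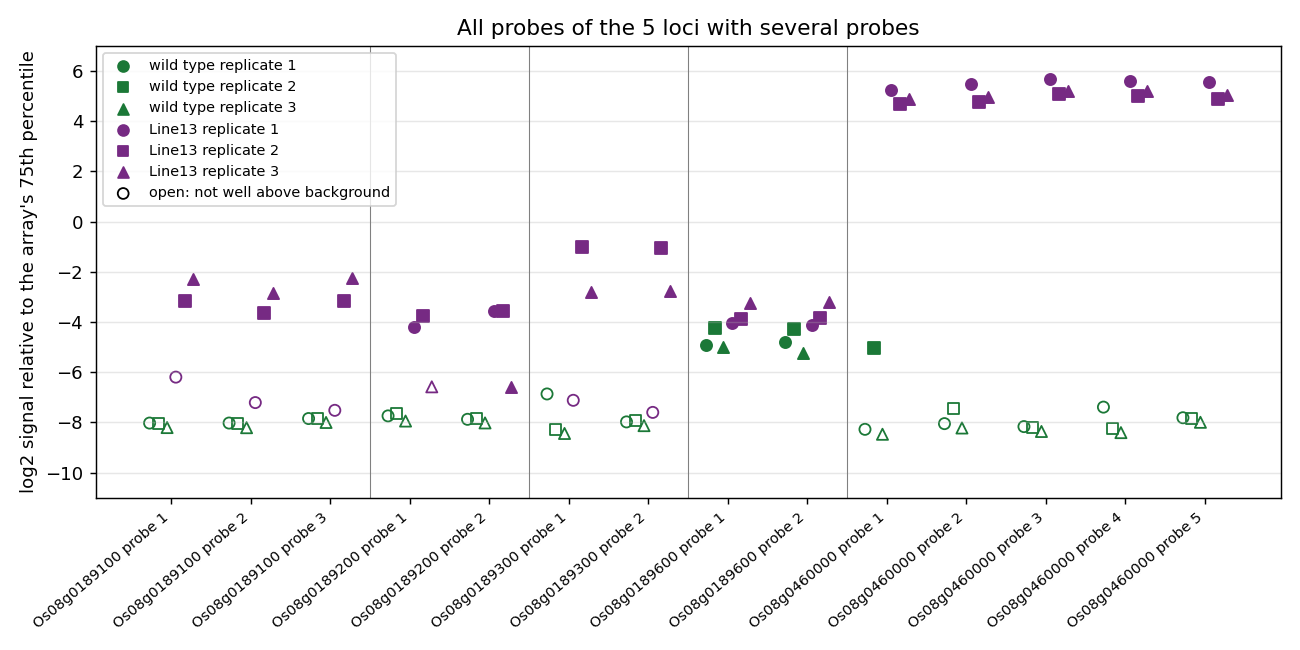
Log2 signal relative to the array's 75th percentile (vertical axis) of all 14 probes of the 5 loci with several probes, marked as in the plot of the members. Probes of a locus give the same order of the Line13 arrays at 4 of the 5 loci, Os08g0189200 being the exception, and the single detected wild-type value of Os08g0460000 appears on 1 of its 5 probes.

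Of the other germin-like loci of chromosome 8, outside the 9, Os08g0459700 was called and the remaining ones were not. Os08g0459700, the neighbour of Os08g0460000 by locus number, was at -3.81, -4.38 and -4.75 on the wild-type arrays and at -1.99, -1.90 and -2.09 on the Line13 arrays. It was 5.0-fold higher on the arrays labelled Line13 (2.32 on the log2 scale, SE 0.27, limma adjusted p = 0.000777). Os08g0231400 was at -1.87, 0.85 and 1.0 in wild type and at -2.92, -3.28 and -1.08 in Line13. The groups overlapped and the difference of -2.42 did not pass (SE 0.92, limma adjusted p = 0.0642).

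Os08g0188900, at the edge of the cluster, was at -6.10, -2.95 and -2.62 in wild type and at -6.40, -5.55 and -3.55 in Line13, and did not pass the filter. Replicate 1 was the lowest wild-type array for Os08g0188900, Os08g0231400 and the member Os08g0189900 alike, in the first and last of them below detection. Os08g0190100, at the other edge, was not detected by 1 of its probes and was detected by the other on Line13 replicate 2 alone, at -6.98.

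The rest of the family was followed through a list of 30 germin-like loci outside the 9, those of chromosome 8 above included, of which 28 were on the array. The list comes from general knowledge of these loci and was not checked against an annotation. By their probe of highest mean, 11 of the 28 were detected on no array, Os08g0190100 among them, and 12 passed the filter. Of these 12, limma with Benjamini-Hochberg adjustment called 6 higher and 2 lower on the arrays labelled Line13, with a median difference of 0.63 on the log2 scale. Over all 22232 genes 54.7% were called, 26.8% higher and 28.0% lower, and the median difference was -0.07. Os05g0277500, Os01g0284500 and Os01g0952000, called higher, passed the filter through Line13 alone, and Os01g0952100, called lower, through wild type alone. The filter favours a difference at such loci, so little is read from the 6 and 2 calls. The lower calls depended on single arrays, with 0 left without wild-type replicate 2 or 3, and 1 left without wild-type replicate 1 or Line13 replicate 2. The number called higher was 5 to 8 when 1 array was left out, and 3 of 7 among loci detected on all 6 arrays. With that filter 3792 of all 18021 genes were called higher.

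Several of the family members called higher were, like Os08g0460000, near absent from wild type. Os01g0952000 was at -5.24, -5.68 and -5.73 in wild type and at 2.69, 1.94 and 1.32 in Line13, 185-fold higher (7.53 on the log2 scale, SE 0.37, limma adjusted p = 2.17e-05). It was detected on wild-type replicates 1 and 3 only, and its wild-type values lay near the highest random-sequence probes, so the fold is no firm size. A second probe was detected on no wild-type array and was at least 497-fold higher. Os05g0277500 was detected on no wild-type array and stood at -0.53, -0.72 and -1.44 on the Line13 arrays, at least 60.2-fold higher (limma adjusted p = 8.82e-06). Os01g0284500 was detected in wild type on replicate 3 alone, at -5.00, and was at 0.02, 0.15 and 0.04 on the Line13 arrays. It was called higher (limma adjusted p = 0.000653), but with 2 of 3 wild-type values below detection its fitted difference of 7.04 (SE 0.79) is no measured size. The 3 pools of Line13 were nearly equal for this gene.

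Os01g0249200 was at -3.96, -2.68 and -2.76 in wild type and at -0.30, 1.64 and 1.22 in Line13, 15.9-fold higher (SE 0.59 on the log2 scale, limma adjusted p = 0.00201). Os03g0651800 rose by 0.98 (SE 0.33, limma adjusted p = 0.0437). Os03g0804500 fell by 2.14 (SE 0.67, limma adjusted p = 0.0335), and Os01g0952100 fell by 1.54 (SE 0.54, limma adjusted p = 0.0482). Both were near the threshold. Os03g0804500 was at 0.12, 0.84 and 0.69 in wild type and at -3.18, -0.86 and -0.74 in Line13, where replicate 1 was again the lowest.

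**Figure D3:**
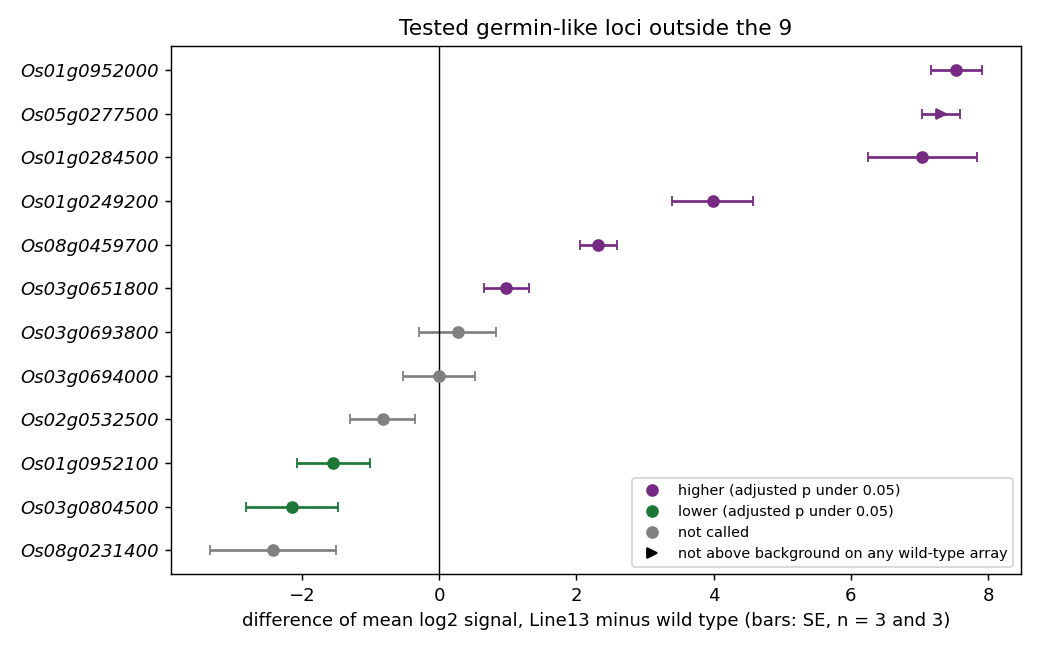
Difference of mean log2 signal, Line13 minus wild type (horizontal axis, bars are SE, n = 3 and 3), for the 12 tested germin-like loci outside the 9. Purple marks are called higher, green marks lower and grey marks not called. Differences run from -2.42 to 7.53, and the triangle is a locus detected on no wild-type array.

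Some listed loci varied among the Line13 pools in the ways the cluster did. Os03g0693700 and Os03g0693900 were, like Os08g0189100, Os08g0189300 and Os08g0189400, detected on Line13 replicates 2 and 3 alone, at -4.89 and -4.10 and at -3.90 and -4.82. Os09g0568700 was detected on Line13 replicates 1 and 2, at -4.64 and -2.01, and not on replicate 3, which is close to the order of Os08g0189200. None of these 3 passed the filter, and their likeness to the cluster loci was not tested.

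Markers of other tissues, also listed from general knowledge, moved with the groups and among the pools. All 5 markers of dividing tissue were called higher, against 26.8% of all genes tested. Of these 5, 1, 2 and 2 were detected on wild-type replicates 1 to 3, and 5 on each Line13 array. Most of them thus passed the filter through Line13 alone, which favours a difference, so little is read from the count. Their summed signal was 0.501 to 0.775 on the wild-type arrays and 7.66 to 13.9 on the Line13 arrays. Of 4 root markers, 2 were called higher and 1 lower, with summed signals of 0.0700 to 0.204 in wild type and 24.5 to 29.5 in Line13. Both root markers called higher were detected on no wild-type array, so they too passed the filter through Line13 alone. The Line13 sums came nearly all from Os02g0662100, which was detected on no wild-type array and was at 4.70, 4.60 and 4.88 on the Line13 arrays. Os03g0307200, listed as a root marker, was detected on every wild-type array, so in these blades it was no mark of root alone. It was 12.3-fold lower in Line13 (limma adjusted p = 0.00743), where it was detected on 1 array. Of 4 shoot meristem markers of the KNOX class, 1 was tested and not called. The number of them detected was 2, 4 and 1 on Line13 replicates 1 to 3 and 1 on each wild-type array, with summed signals of 0.362, 0.945 and 0.0535 on the Line13 arrays and 0.0376 to 0.0889 in wild type. Os08g0460000 and the markers of dividing tissue were both higher on the Line13 arrays, as were 2 of the root markers, and 1 root marker was lower. Within Line13 the summed signal of dividing tissue and Os08g0460000 were both highest on replicate 1. The sum was lowest on replicate 3 and Os08g0460000 on replicate 2. Os08g0189200 and the KNOX sum were both lowest on replicate 3. The KNOX sum was highest on replicate 2, and the probes of Os08g0189200 on replicate 1 or 2. The part of such tissues in the germin-like signals was not tested, and in whole blades more transcript per cell and more cells of a kind cannot be told apart.

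The genes around the germin-like loci were mixed. Of the 40 nearest loci by locus number, 10 on each side of the cluster and of Os08g0460000 with its neighbour, 35 were tested. Called higher were 9 and called lower were 11, together near the share over all genes of 54.7%, with a median difference of 0.07. Around Os08g0460000, the gene Os08g0459300 was 6.47 higher on the log2 scale (SE 0.42, limma adjusted p = 6.18e-05), while Os08g0457600 fell by 2.31 (SE 0.27, limma adjusted p = 0.000714). Around the cluster, Os08g0190700 was higher by 3.81 (SE 0.45, limma adjusted p = 0.000801) and Os08g0191600 fell by 1.46 (SE 0.18, limma adjusted p = 0.00101). Os08g0459300 and Os08g0190700 were each detected on just 2 wild-type arrays, so their differences are no firm sizes. The immediate neighbours, Os08g0188000 before the cluster and Os08g0190200 after it, were not called, and neither was Os08g0459600 beside Os08g0459700. On the other side of Os08g0460000, its nearest neighbour Os08g0460600 fell by 1.61 (SE 0.21, limma adjusted p = 0.00119). Without wild-type replicate 2 the count higher was 6.

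**Figure D4:**
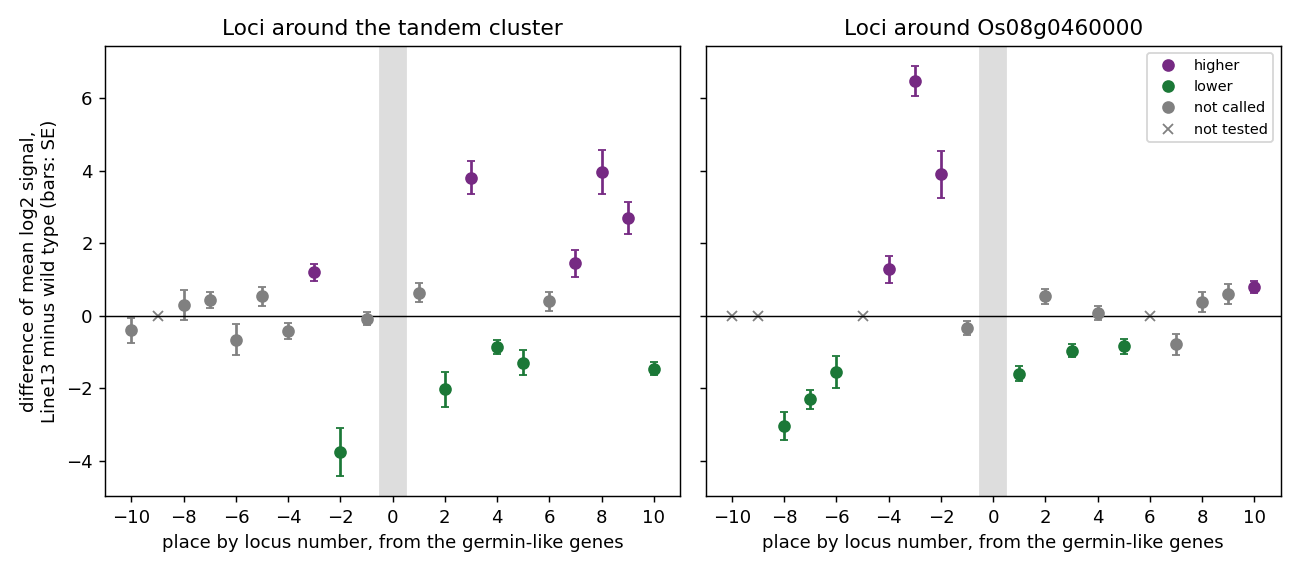
Difference of mean log2 signal, Line13 minus wild type (vertical axis, bars are SE, n = 3 and 3), of the 10 nearest loci on each side of the cluster (left) and of Os08g0460000 with its neighbour (right), in order of locus number (horizontal axis). The grey band marks the place of the germin-like genes, crosses are loci not tested, and calls in both directions lie on the flanks of both places.

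Enzymes that make or remove superoxide, the substrate of germin-like dismutases, were listed as 7 superoxide dismutases and 9 NADPH oxidases, again from general knowledge. The list does not separate enzymes of the cell wall from those inside the cell. Of 16 loci, 15 were tested, 10 were called higher and 2 lower, against 26.8% and 28.0% over all genes, with a median difference of 0.89. Among the 12 loci detected on all 6 arrays, 8 were called higher and 1 lower. Os05g0528000, listed as an NADPH oxidase, rose by 2.08 (SE 0.23, limma adjusted p = 0.000594). Os07g0665200 and Os08g0561700, listed as superoxide dismutases, rose by 2.12 and 2.59 (SE 0.26 and 0.37, limma adjusted p = 0.000928 and 0.00176), and Os03g0219200 fell by 1.59 (SE 0.28, limma adjusted p = 0.00431). The count higher was 6 without wild-type replicate 2 and 6 with array medians as the scale, so it depends on both.

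Across the 6 arrays, the loci outside the 9 whose values followed those of the Os08g0460000 probe most closely were Os12g0517100, Os01g0822900 and Os10g0540800, each with Pearson r = 0.998. Os12g0517100 and Os10g0540800 were detected on no wild-type array, and the Os08g0460000 probe on 1, so r was computed largely over the contrast between groups and over values below detection. Os01g0822900 was of like size, at -7.32, -5.01 and -8.44 in wild type and at 4.84, 4.98 and 4.63 in Line13, including the single higher value on wild-type replicate 2. Among the tested loci 124 had r over 0.99 with this probe, and 1090 had it with the median of the 5 probes. The order of likeness is therefore a description of this probe only, and the arrays share slide and scan within a group.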

How the data were processed

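Per the file headers, spots were measured with Agilent Feature Extraction 10.10.1.1. The deposited processed intensity is linear and background-subtracted, with arrays left unscaled. The value table that the authors deposited also holds linear intensity, equal to the processed signal times 1.61 to 7.66, a constant per array whose origin the sources used here do not state. Medians of its columns were 395.65, 426.55 and 412.25 for wild type and 494.5, 554.8 and 561.45 for Line13, with no centring of genes. Flags of the scanner were read as deposited, and no spot was saturated.

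The log2 processed signal minus the array's 75th percentile of non-control spots entered limma 3.58.1 (R 4.3.3) as a model of 2 groups without a block, and adjusted p-values by Benjamini-Hochberg were called under 0.05. Outlier spots were dropped, as were 48 probes marked as no gene. The test took probes detected on all 3 arrays of a group, and the brightest tested probe stood for a locus. The fit held 22139 loci and 93 probes without a locus. Members without a tested probe are shown by their brightest probe. The fit was tested on simulated data. Plots were drawn with matplotlib 3.10.9, and tables made with pandas 2.3.3 and numpy 2.4.6 under Python 3.11.15.

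The members and lists were chosen with earlier results of these data known. Named genes were the 9 members, the other germin-like loci of chromosome 8 and those with the smallest unadjusted p of each list. The rule also named the linalool synthase locus and the loci most like Os08g0460000. Named outside that rule, after their values were seen, were Os03g0693700, Os03g0693900, Os09g0568700, Os02g0662100 and the nearest neighbours. The reference table pairs no gene names with these loci. Alternatives were 2 other scalings, the value table, another background correction (normexp with offset 50, on median spot signals since mean signals were not used here), other filters, outlier spots kept, the mean of a locus' probes, a replicate block and leaving out each array. With 3 and 3 arrays, their number limits the precision.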

Additional observations from a re-analysis of the deposited data

How the results depend on the processing

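With another background correction (normexp) Os08g0460000 differed by 8.66 on the log2 scale in place of 12.20. Of the members compared, 7 of 7 moved by more than the spread between replicates, all keeping the sign of their difference. For most of them 1 group holds only undetected values, so the kept sign says little. Leaving out 1 array at a time gave 11.59 to 13.31 for Os08g0460000, the latter without wild-type replicate 2, where only undetected wild-type values are left, so that this range says nothing of stability. Quantile normalization moved Os08g0189600, and the other settings moved no member by more than that spread. Scaling to array medians shifted the median of all genes by -0.31, and 36.0% of its calls were higher against 48.9%. Quantile normalization shifted it by -0.18. With detection on all 6 arrays, 3792 genes in place of 5950 were called higher. Leaving out 1 array gave 4700 to 7085 higher and 4066 to 7509 lower. Of the germin-like loci outside the 9, 3 were called higher with detection on all 6 arrays. Called lower was 1 with the value table, with normexp, with no filter and with detection on all 6 arrays, and 0 to 3 without 1 array. Of the superoxide genes, 6 were higher with array medians and 6 to 10 without 1 array, and 1 was lower with normexp or with detection on all 6 arrays. Of the loci beside the germin-like genes, 4 were higher with detection on all 6 arrays. The cause was not tested. Detection on all 6 arrays leaves 7 of the germin-like loci outside the 9 to test, and no filter leaves 28, against 12. Arrays with the same replicate number did not deviate together (r = 0.11, -0.03 and -0.00 for numbers 1 to 3). With the replicate block 5512 genes were higher and 5388 lower, and 5 and 2 of the germin-like loci outside the 9. Dim signals limit the members: 2 of 9 were detected on no array.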
